A study of Mus musculus with 6 samples.

Results

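Replacement histone variants are the histones that a cell can place in chromatin outside S phase, and 8 genes for variants of H2A and H3 were followed here in mouse dermal fibroblasts, taken by gene symbol from a table of 28293 genes. All 8 were found and all 8 passed the low-count filter. They are H2afx (histone H2A.X), H2afz and H2afv (both H2A.Z), H2afy and H2afy2 (macroH2A), H2afj (H2A.J) and H3f3a and H3f3b (both H3.3). The samples were 3 libraries labelled Lap2alpha KO and 3 labelled WT, all from a cell line that the labels call mouse dermal fibroblast. The culture medium was the same for both groups, DMEM supplemented with serum, and the labels list no treatment. LAP2alpha is the isoform of the Tmpo gene that has no membrane anchor and binds A-type lamins inside the nucleus. How the knockout was made, and whether it is a single clone, is not given in the sources used here.

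Nucleosomes built during DNA replication take their histones from clustered genes whose transcripts end in a stem-loop, without a poly(A) tail. Replacement variants are instead made through the cell cycle from single genes, mostly with polyadenylated transcripts, and are exchanged into existing nucleosomes by dedicated chaperones and remodellers. H2A.Z marks promoters and enhancers, H3.3 marks active genes and, at repeats and telomeres, silent chromatin, macroH2A carries a large extra domain and is enriched in repressed chromatin, and H2A.X is phosphorylated next to DNA breaks. These libraries were made from poly(A)-selected RNA with a directional kit. Of H2afx, which makes both a stem-loop and a polyadenylated transcript, such selection retains the second kind.

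The genes for H2A.Z and for H3.3 come in pairs that encode nearly or exactly the same protein with different bases, and their first 60 coding bases are shown to let the differences within each pair be seen. Capitals mark bases that differ from the first sequence of each set, and H3f3c is a processed pseudogene on chromosome 2.
H3f3a: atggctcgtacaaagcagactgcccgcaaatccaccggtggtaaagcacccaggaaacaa
H3f3b: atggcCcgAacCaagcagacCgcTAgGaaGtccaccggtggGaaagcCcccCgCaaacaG
H3f3c: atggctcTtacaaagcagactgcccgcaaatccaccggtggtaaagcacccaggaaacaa
H2afz: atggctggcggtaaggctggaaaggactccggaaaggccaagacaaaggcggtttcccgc
H2afv: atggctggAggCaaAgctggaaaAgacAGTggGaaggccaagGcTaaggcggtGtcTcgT
Over the whole reading frame H3f3a and H3f3b differed at 95 of 411 bases and at none of the encoded amino acids. H2afz and H2afv differed at 81 of 387 bases and at 3 amino acids. The pseudogene H3f3c was far closer, and differed from H3f3a at 4 of 411 bases.

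The libraries held 25768678 to 27281473 counts in KO and 22159339 to 26553616 counts in WT. Mitochondrially encoded genes took 3.76 to 4.46% of the counts in KO and 1.99 to 2.46% in WT. Tmpo, the targeted gene, averaged 129 ± 6.81 CPM in KO, against 252 ± 2.65 CPM in WT (CPM, counts scaled to the library total; mean ± SD, n = 3). That count sums all LAP2 isoforms. All 11 fibroblast markers looked for reached 1 CPM in at least 1 library. Of these, 9 were called higher in KO, 1 lower and 1 not called, where 37.7% of all tested genes were called higher. All 11 together had summed levels of 24050 to 25510 CPM in KO, against 7059 to 7762 CPM in WT. Col1a2 carried the most of that sum in KO, at 10950 ± 184 CPM, against 1788 ± 80.1 CPM in WT (n = 3). In WT Vim carried the most, at 2671 ± 95.7 CPM, against 4158 ± 260 CPM in KO. Lum was at 1.94 to 2.53 CPM in KO, against 0.0377 to 0.122 CPM in WT. Thy1 was the marker called lower, at 238 ± 11.5 CPM in KO, against 379 ± 16.5 CPM in WT, and Fn1 the one not called, at 1359 ± 31.9 CPM in KO, against 1405 ± 162 CPM in WT. Markers of keratinocytes, endothelium, immune cells, melanocytes and Schwann cells summed to 7.17 CPM or less per list in KO and to 8.39 CPM or less in WT. Nothing in the labels tells whether a replicate was its own culture, so each p-value reflects the spread among these 6 libraries and no more, and a difference between lines cannot be told apart from the loss of LAP2alpha. The part of the mitochondrial share and of the fibroblast markers in the results was not tested. In bulk RNA, fewer cells of a kind and less RNA per cell cannot be told apart either.

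The comparison asked whether transcripts of each variant differed between KO and WT cells. Of the 8 genes, 5 were lower in KO, 1 was higher and 2 did not pass the test (edgeR quasi-likelihood, adjusted p under 0.05, called genes below). This has to be read against a comparison in which 75.1% of 15081 tested genes were called, 37.7% higher and 37.5% lower in KO. The CPM values of the groups did not overlap for 7 of the 8 genes, against 76.8% of all tested genes. The median log2 fold change of the 8 genes was −0.38, and that of all tested genes was 0.01.

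**Figure D1:**
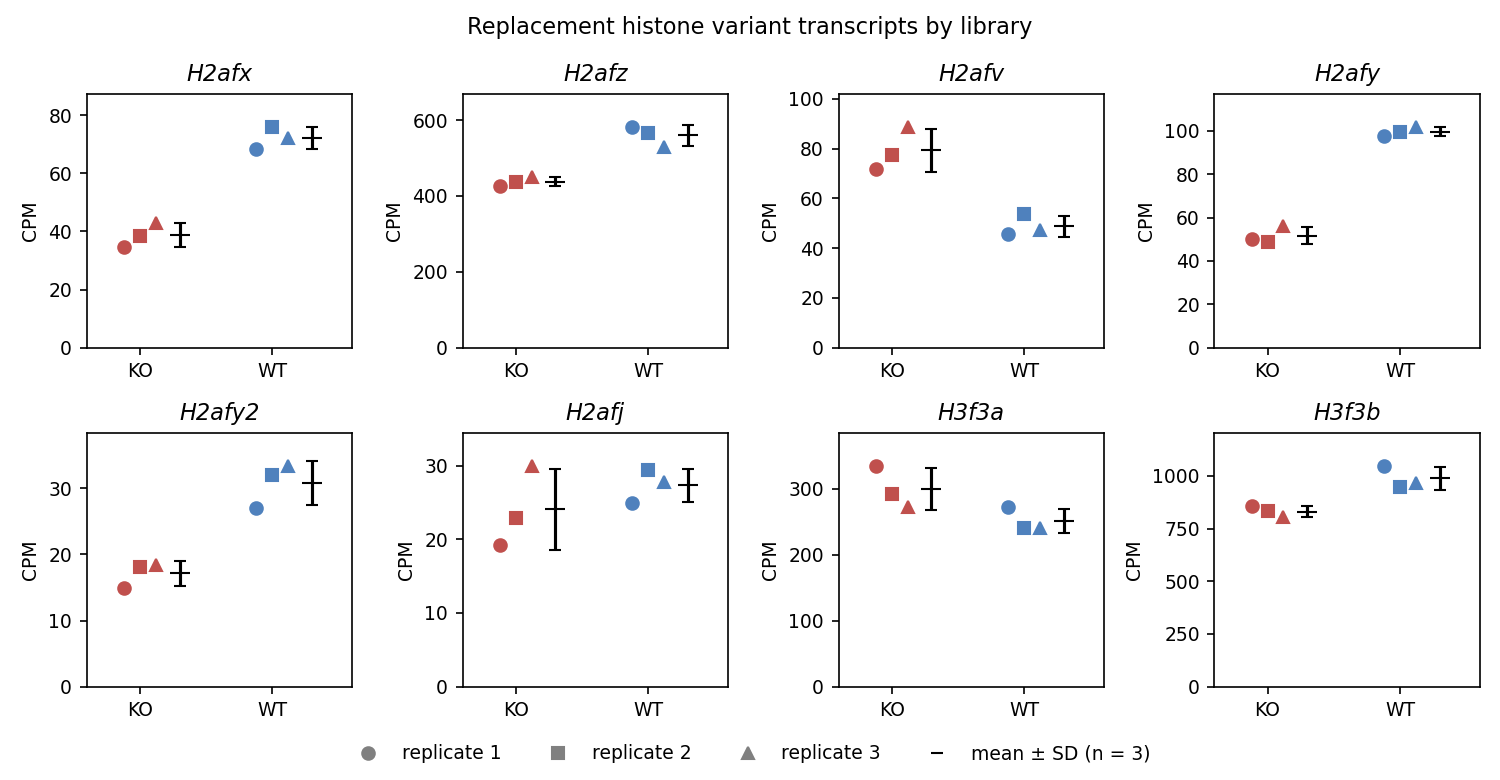
Level of each replacement histone variant gene in CPM (vertical axis, linear from 0) in each of the 3 KO and 3 WT libraries, with the mean ± SD of each group in black. The KO values lie below all WT values for H2afx, H2afz, H2afy, H2afy2 and H3f3b and above them for H2afv, the groups overlap for H2afj, and for H3f3a the lowest KO value (272.5 CPM) is next to the highest WT value (272.3 CPM).

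H2afx encodes H2A.X, whose tail is phosphorylated by the ATM family of kinases at DNA breaks. The gene (ENSMUSG00000049932; plus strand of chromosome 9, 44334694 to 44336077, GRCm38 as for all positions here) is a single exon of 1384 bases with 1 annotated transcript. It was at 34.7, 38.5 and 43.0 CPM in KO, against 68.3, 76.0 and 72.0 CPM in WT. Every KO library was below every WT library, by more than the spread within either group. H2afx was 1.97-fold lower in KO (log2 fold change −0.97, SE 0.0808, adjusted p = 1.4e-06). The 2 related genes with the nearest fold changes were Tyms (−0.97) and Mcm2 (−0.99), a thymidylate enzyme and a subunit of the replicative helicase.

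H2afz and H2afv, the H2A.Z genes, changed in opposite directions. H2afz (ENSMUSG00000037894; plus strand of chromosome 3, 137864487 to 137866922) was at 427, 436 and 449.5 CPM in KO, against 583, 567 and 529 CPM in WT. All 3 KO libraries were lower, and the gene was 1.35-fold lower in KO (log2 fold change −0.43, SE 0.0556, adjusted p = 4.2e-05). H2afv (ENSMUSG00000041126; minus strand of chromosome 11, 6427229 to 6444443) was at 71.9, 77.2 and 88.8 CPM in KO, against 45.6, 53.6 and 47.3 CPM in WT. Here all 3 KO libraries were higher, by 1.54-fold (log2 fold change 0.62, SE 0.0895, adjusted p = 9.8e-05). H2afz had 5.06 to 5.94 counts for each count of H2afv in KO and 10.6 to 12.8 in WT. The summed level of both genes was 517 ± 20.0 CPM in KO, against 608 ± 27.9 CPM in WT (n = 3).

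Levels of different genes were compared per kilobase of annotated exon. On that scale H2afz supplied 83.6 ± 1.13% of H2A.Z transcripts in KO and 91.3 ± 0.759% in WT (n = 3). With the longest transcript of each gene as the length, the share was 89.4 ± 0.779% in KO and 94.6 ± 0.490% in WT. H2afz was the main H2A.Z transcript in every library under both lengths, with a smaller share in KO.

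**Figure D2:**
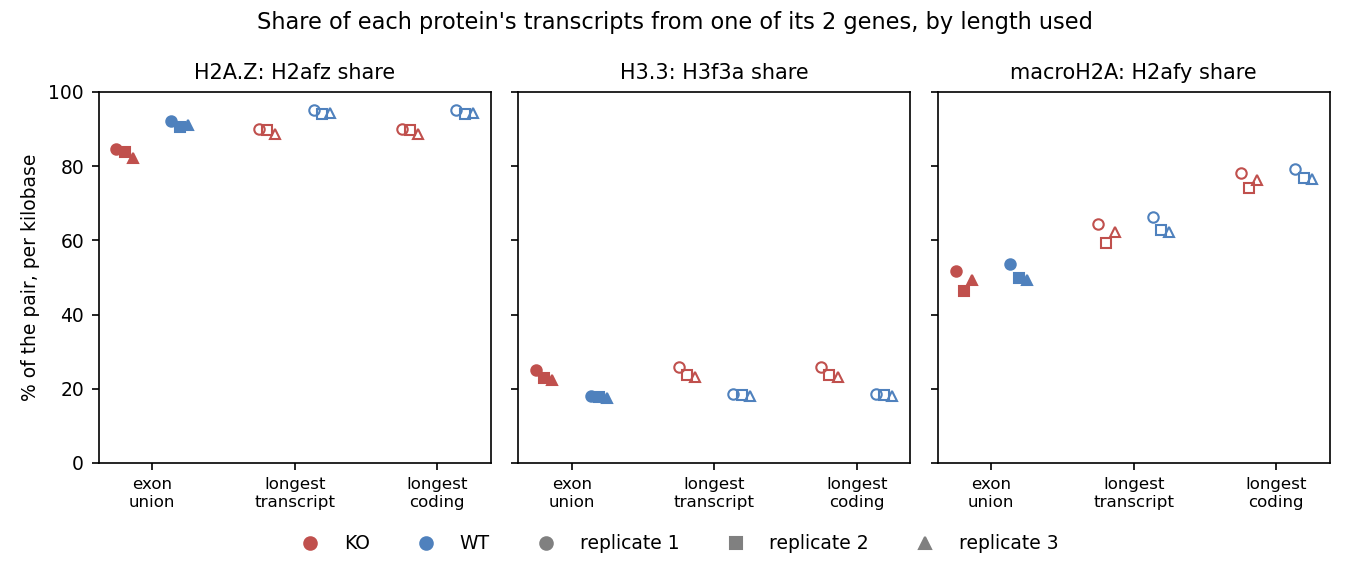
Share (percent, per kilobase) of H2A.Z, H3.3 and macroH2A transcripts that comes from H2afz, H3f3a and H2afy, in each KO and WT library, for 3 choices of gene length. The KO and WT libraries are apart for H2A.Z and H3.3 under each length, whereas for macroH2A they overlap and the length moves the share from 49.1% to 76.2% in KO and from 50.9% to 77.5% in WT.

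The start-site regions of the H2A.Z genes are shown because the pair was called in opposite directions. Capitals mark matches to the CCAAT box (CCAAT, or ATTGG on the other strand), the site of the factor NF-Y. The H2afz stretch is chr3:137864375-137864486 on the plus strand and the H2afv stretch chr11:6444444-6444693 on the minus strand (RefSeq, GRCm38.p6), each ending just before the RefSeq start and leaving out annotated exons.
H2afz: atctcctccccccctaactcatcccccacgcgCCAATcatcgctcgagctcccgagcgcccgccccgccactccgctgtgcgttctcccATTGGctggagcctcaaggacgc
H2afv: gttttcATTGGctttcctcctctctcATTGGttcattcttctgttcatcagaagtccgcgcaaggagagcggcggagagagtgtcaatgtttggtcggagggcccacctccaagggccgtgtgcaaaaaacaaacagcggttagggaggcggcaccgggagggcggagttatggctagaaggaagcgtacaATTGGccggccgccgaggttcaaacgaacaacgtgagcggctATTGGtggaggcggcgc
In the 250 bases upstream of the start, H2afz held 2 CCAAT matches and H2afv 4, where 33.8% of 32851 RefSeq windows of that length hold at least 1. Of the other members with a window, H3f3b held 4 CCAAT matches, H2afj 3, H3f3a 1, and H2afy and H2afy2 none. All 4 matches of H3f3b and the 1 of H3f3a lie in annotated exon bases, as do 214 of the 250 bases of the H3f3b window and all 250 of the H2afy2 window. Annotated exons also cover 138 bases of the H2afz window, 107 of H3f3a, 81 of H2afy and 4 of H2afj. The windows of H3f3a, H3f3b, H2afy and H2afy2 lie within the gene positions given here, because the RefSeq start lies inside them. TTTGAA, the core of the CHR element of cell cycle genes, matched once in H2afv on the reverse strand and in no other member, against 16% of all windows. TTTNNCGC, an E2F-like motif, matched in none of the 7 members with a window, against 4.28% of all windows, which says only that these letters are not there. TATAAA, the TATA box, matched only in H3f3b, there too in exon bases, against 12.4% of windows. H2afx had no window in the table.

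The macroH2A genes fell together. H2afy (ENSMUSG00000015937; minus strand of chromosome 13, 56073619 to 56136361) was at 50.1, 48.6 and 56.0 CPM in KO, against 97.7, 99.2 and 102 CPM in WT. The lowest WT library was well above the highest KO library. H2afy was 2.04-fold lower in KO (log2 fold change −1.03, SE 0.0642, adjusted p = 1.7e-07). H2afy2 (ENSMUSG00000020086; minus strand of chromosome 10, 61738665 to 61784147) was at 14.96, 18.0 and 18.4 CPM in KO, against 27.0, 31.97 and 33.4 CPM in WT. It was 1.90-fold lower in KO (log2 fold change −0.92, SE 0.102, adjusted p = 1.3e-05), again with no overlap between groups. The summed level of both genes was 68.7 ± 4.98 CPM in KO, against 130.4 ± 5.37 CPM in WT (n = 3).

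H2afy had 2.697 to 3.35 counts for each count of H2afy2 in KO and 3.05 to 3.62 in WT, so the ratio overlapped between the groups. Which gene gave more transcripts per length could not be settled, because the share of H2afy was 49.1 ± 2.72% in KO and 50.9 ± 2.35% in WT over the exon union of 6809 bases and 76.2 ± 1.98% in KO and 77.5 ± 1.62% in WT over its longest coding transcript of 2046 bases. Of the 8 annotated H2afy transcripts in the union, 3 are typed as retained introns and 2 as protein coding. H2afy makes splice forms with different ADP-ribose binding, which a gene-level count does not separate. Of the H2afy2 exons 10.7% lie opposite Aifm2, and of the H2afy exons 7.36% lie opposite the antisense gene Gm47071. Whether reads were counted by strand is not given in the sources used here.

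H2afj encodes H2A.J, a mammalian variant close in sequence to the replication-dependent H2A and known in human fibroblasts for accumulating in senescence. The gene is ENSMUSG00000060032, on the plus strand of chromosome 6 from 136808244 to 136810074. Its levels were 19.3, 22.9 and 30.0 CPM in KO, against 25.0, 29.4 and 27.7 CPM in WT. The groups overlapped, with KO replicate 1 the lowest and KO replicate 3 the highest of all 6 libraries, and the KO libraries had a coefficient of variation of 22.7%, where counting alone would give 3.97%. H2afj was not called (log2 fold change −0.26, SE 0.140, adjusted p = 0.11). The result rested on single libraries, with −0.47 (adjusted p = 0.0015) without KO replicate 3 and −0.12 (adjusted p = 0.39) without KO replicate 1.

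The H3.3 genes encode an identical protein. H3f3b was lower in KO and H3f3a did not pass the test. H3f3b (ENSMUSG00000016559; minus strand of chromosome 11, 116021912 to 116027962) had the most counts of the 8 genes, at 856, 832 and 803 CPM in KO, against 1049, 949 and 967 CPM in WT. All KO libraries were lower, and the gene was 1.26-fold lower in KO (log2 fold change −0.33, SE 0.0561, adjusted p = 0.00033). H3f3a (ENSMUSG00000060743; minus strand of chromosome 1, 180800832 to 180813943) was at 335, 293 and 272.5 CPM in KO, against 272.3, 240.2 and 240.3 CPM in WT. In CPM its groups touched without overlapping, and it was not called (log2 fold change 0.18, SE 0.0812, adjusted p = 0.066). Under 15 alternative settings its fold change was positive in all and it was called in 7, with adjusted p between 0.0034 and 0.26. Leaving out KO replicate 3 gave 0.23 (adjusted p = 0.019) and leaving out WT replicate 1 gave 0.22 (adjusted p = 0.027). Of the H3f3a exons 18.2% lie opposite the lincRNA Gm17275 and 4.57% opposite H3f3aos.

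Per kilobase of exon, H3f3a supplied 23.4 ± 1.35% of H3.3 transcripts in KO and 17.7 ± 0.322% in WT (n = 3), with no overlap between the libraries. The summed level of both genes was 1130 ± 58.0 CPM in KO, against 1240 ± 71.5 CPM in WT. Values were 1076 to 1191 CPM in KO and 1190 to 1321 CPM in WT, so the sums overlapped narrowly. CPM is scaled to library totals and the fit used another scaling, so such narrow overlaps or gaps could change with the scale.

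**Figure D3:**
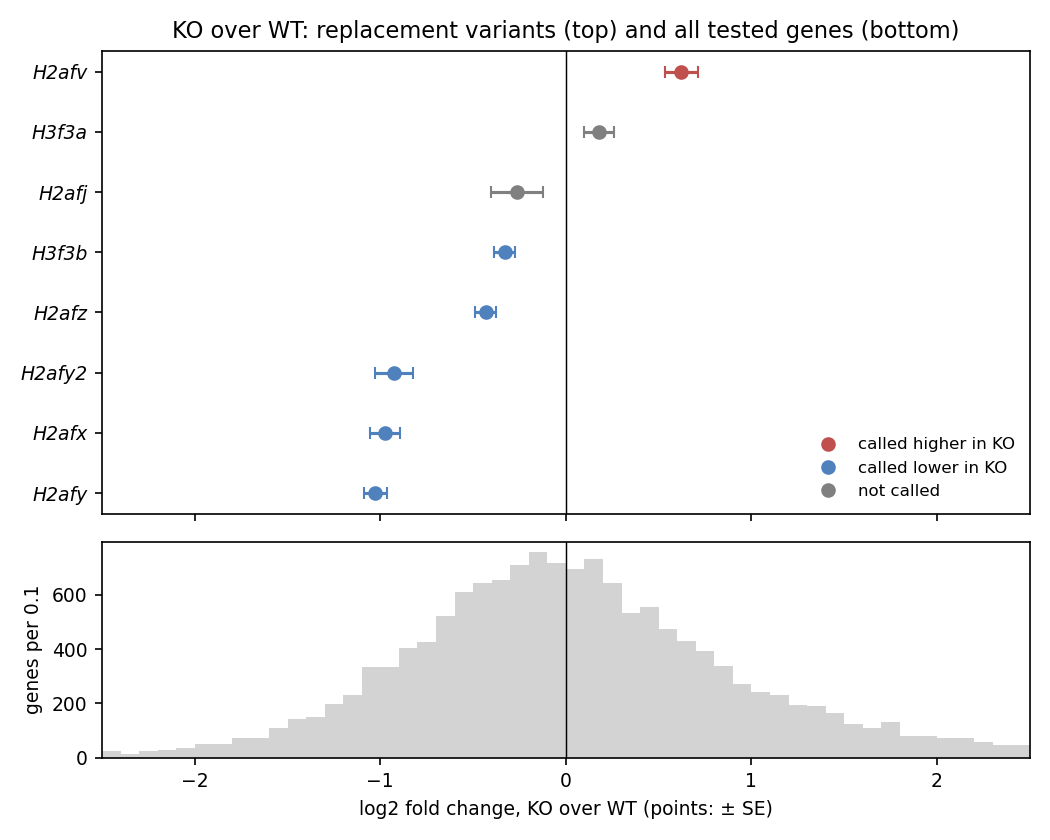
Log2 fold change KO over WT of the 8 genes (points, ± SE, coloured by call) above a histogram of the 15081 tested genes in bins of 0.1. H2afv is the only called gene on the right at 0.62, H2afy is farthest to the left at −1.03, and 865 tested genes lie outside the plotted range.

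Reads of H3f3a could have been divided among its copies. The annotation holds 15 processed pseudogenes in the count table with at least 95% identity to H3f3a over at least 200 bases, and together they carried 186 to 189 CPM in KO, against 143 to 151 CPM in WT. That is 56.3 to 68.8% of the H3f3a count in KO and 52.5 to 62.9% in WT. Of the counts of all copies, 5 pseudogenes took 93.3 to 94.6% in KO and 92.7 to 94.99% in WT. H3f3c, the most counted, was at 56.6 ± 3.27 CPM in KO, against 39.5 ± 4.57 CPM in WT (n = 3) and was called higher in KO (log2 fold change 0.45, adjusted p = 0.00063). Among the 11 copies that passed the low-count filter 4 were called higher, none lower and 7 were not called. Of all tested genes 37.7% were called higher and 37.5% lower, so the copies called higher are near the share of all genes and those called lower are below it. Copies that may share reads with H3f3a and with each other are not independent rows. H3f3a and its copies summed to 460 to 524 CPM in KO and to 390.1 to 415 CPM in WT, with no overlap. When the copies were added to H3f3a before the fit it was called (log2 fold change 0.21, adjusted p = 0.0082), a setting chosen after the data were seen. Copies of the other members carried under 1% of the parent's count in every library. Whether reads that match several places were divided, dropped or given to 1 place is not given in the sources used here, so the level and the fold change of H3f3a are uncertain.

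**Figure D4:**
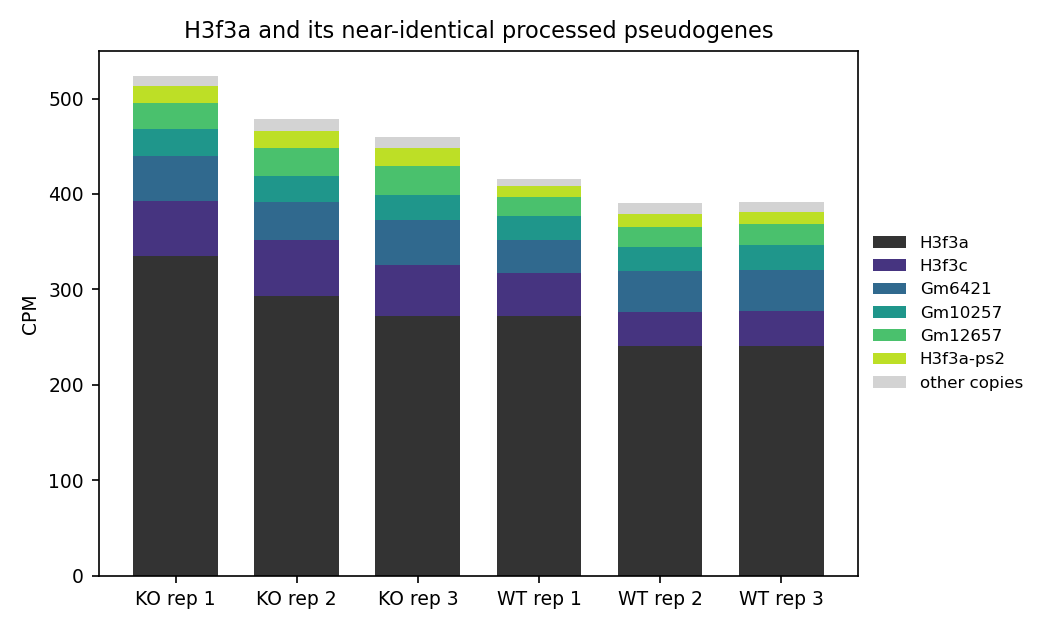
Stacked CPM of H3f3a (dark, bottom) and of its near-identical processed pseudogenes in each KO and WT library, on a linear axis from 0. The copies add 186 to 189 CPM to H3f3a in KO and 143 to 151 CPM in WT.

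Per kilobase of exon the order of the 8 genes was similar in both groups. H3f3b was first, at 279 ± 8.86 in KO and 332 ± 17.9 in WT (CPM per kilobase, n = 3), and H2afz next, at 246 ± 6.41 in KO and 315 ± 15.5 in WT. These genes were apart in KO but overlapped in WT, and H2afz was first when the longest transcript was the length (409 ± 10.7 in KO and 523 ± 25.7 in WT, with H3f3b at 330.3 ± 10.5 in KO and 393 ± 21.2 in WT). H3f3a followed at 85.7 ± 9.14 in KO and 71.6 ± 5.29 in WT. H2afv and H2afx then changed places, with H2afv at 48.6 ± 5.28 in KO and 29.9 ± 2.597 in WT and H2afx at 28.0 ± 3.01 in KO and 52.1 ± 2.77 in WT. H2afj (13.1 ± 2.98 in KO, 14.9 ± 1.22 in WT), H2afy2 (7.88 ± 0.874 in KO, 14.2 ± 1.55 in WT) and H2afy (7.57 ± 0.570 in KO, 14.6 ± 0.312 in WT) came last, with overlapping values in WT. Over its longest coding transcript H2afy was at 25.2 ± 1.90 in KO and 48.7 ± 1.04 in WT, so its place depends on the length.

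The machinery that places these variants was read out of the same fit, in which 37.7% of all tested genes were called higher in KO and 37.5% lower. In the H2A.Z list, of SRCAP, TIP60/p400 and INO80 subunits and the H2A.Z remover Anp32e, 7 of 22 genes were higher in KO, 10 lower and 5 not called (median log2 fold change −0.08). The 77.3% called is close to the 75.1% of all tested genes. Without WT replicate 1, 4 were called higher. Actl6a, an actin-like subunit shared by several remodellers, was at 29.2 ± 0.692 CPM in KO, against 76.9 ± 3.68 CPM in WT (n = 3), and the ATPase Ruvbl2 was also lower (−1.07). The TIP60 subunits Mbtd1 (1.02) and Epc2 (0.68) were higher. Anp32e (−0.39) was lower. Of the other ATPases, Ep400 (−0.40) was lower, while Srcap (−0.0020) and Ino80 (0.02) were not called. Srcap had only 61 to 93 counts per library (SE 0.147). Actr6 (−0.10), Dmap1 (0.09) and Znhit1 (−0.06) were not called either. Anp32e, Ep400 and these uncalled genes were named after their values were seen.

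Of the 8 chaperones of H3.3, 2 were higher in KO, 3 lower and 3 not called (median log2 fold change 0.01). That is 62.5% called, against 75.1% of all tested genes. Scaling to library totals alone called 4 higher. Dek was at 113 ± 8.26 CPM in KO, against 223 ± 10.3 CPM in WT (n = 3), Asf1a, which hands H3 and H4 to the HIRA complex, was lower (−1.04), and so was Hira itself (−0.68). Ubn1, a partner of Hira, was higher (0.62). Named after their values were seen, Atrx (0.40), which works with Daxx at repeats, was higher, and Daxx (0.07), Ubn2 (−0.04) and Cabin1 (0.13) were not called. The 8 chaperones of replication-coupled H3 deposition were all lower in KO (median −1.33), where 37.5% of all tested genes were lower. Nasp, which holds soluble H3 and H4, was at 53.9 ± 2.13 CPM in KO, against 190 ± 0.983 CPM in WT, with Asf1b (−1.72), the CAF-1 subunit Chaf1b (−1.40) and Mms22l (−1.53) lower too. All 5 genes for the centromeric H3 variant CENP-A and its loading were lower (median −0.81), against the same 37.5%. Cenpa was at 53.5 ± 1.93 CPM in KO, against 75.0 ± 2.35 CPM in WT, and its chaperone Hjurp (−0.81) and the loading factors Mis18a (−1.22) and Oip5 (−1.01) were lower.

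Of 15 genes that act on H2A.X, 13 were lower in KO, 1 was higher and 1 was not called (median log2 fold change −0.78), where 37.5% of all tested genes were lower and their median was 0.01. The break sensors Mre11a (−0.92) and Nbn (−1.02) and Mdc1 (−0.89), which binds phosphorylated H2A.X, were lower. Named after their values were seen, Trp53bp1 (0.79) was the gene called higher and the kinase Prkdc (−0.02) the one not called. The kinases Atm (−0.89) and Atr (−0.55), also named after their values were seen, were lower. Ssrp1, a subunit of the histone chaperone FACT, was at 296 ± 22.8 CPM in KO, against 641 ± 33.7 CPM in WT (n = 3). Nbn was among the nearest fold changes to H2afy, and Mre11a (−0.92) and Mdc1 were the nearest to H2afy2. The macroH2A list holds ADP-ribose enzymes and splicing factors that act on H2afy. Of its 7 genes 3 were higher, 3 lower and 1 not called (median −0.20). That is 85.7% called, against 75.1% of all tested genes. Rbfox2 was at 184 ± 3.50 CPM in KO, against 85.2 ± 4.49 CPM in WT, the helicase Ddx17 (0.96) and Parg (0.28) were higher, and Parp1 (−0.70), which makes poly(ADP-ribose), was lower. Named after their values were seen, the splicing factor Qk (−0.40) and the helicase Ddx5 (−0.20) were lower, and Mbnl1 (−0.21) was not called.

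Most markers of S phase and mitosis were lower in KO, the same direction as the members called lower. Of 16 markers 15 were lower in KO, against 37.5% of all tested genes, and Mki67 was not called (0.01). Their median log2 fold change was −1.16. Rrm2 was at 54.8 ± 0.882 CPM in KO, against 216 ± 6.66 CPM in WT (n = 3), and Pcna was at 173 ± 2.31 CPM in KO, against 518 ± 16.7 CPM in WT. Mcm3 (−1.99) and Ccna2 (−1.42) were lower as well. The called decreases among the 8 variants, −0.33 to −1.03, were smaller than this median. The 15 markers called lower ranged from −2.05 (Rrm2) to −0.79 (Mcm6). The part of cell cycling in the decreases of the variants was not tested. Supt16 (−0.45) and Rad50 (−0.40) had the fold changes nearest to H2afz, Epc2 and Ubn1 those nearest to H2afv, Asf1a and Nbn those nearest to H2afy, and Kat5 (−0.28) and Cdan1 (−0.28) those nearest to H3f3b, which is a likeness of 1 fold change each and no more.

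**Figure D5:**
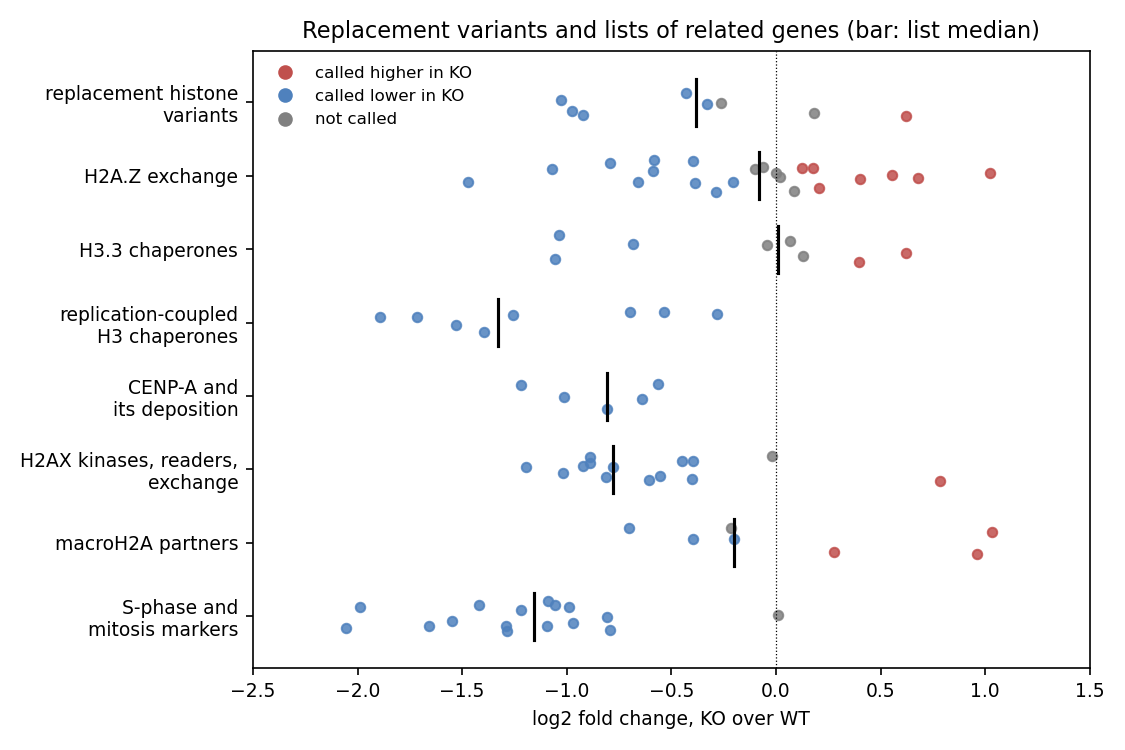
Log2 fold change KO over WT of each gene (points, coloured by call) in the 8 replacement variants and the 7 lists of related genes, with the list median as a bar. The lists of replication-coupled chaperones, CENP-A loading and cell cycle markers hold no gene called higher, the H2A.Z and H3.3 lists lie on both sides of 0, and Eya1 (−4.49), of the H2A.X list, lies outside the axis.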

How the data were processed

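The authors deposited raw counts per Ensembl gene, 1 file per library. Reads were aligned with STAR 2.7.10b to GRCm38, per the submitters' processing notes, and stranded poly(A) libraries were made, per the labels' protocols. For the counting program, its annotation and its strand setting, the labels and notes give nothing. Symbols, positions and lengths came from GENCODE M21, which matched 28230 of 28293 identifiers. Differences of KO from WT were tested with edgeR 4.0.16 (R 4.3.3; TMM, filterByExpr, quasi-likelihood test, Benjamini-Hochberg adjustment over 15081 genes), and every p is from that fit unless another setting is named. SE is the log2 fold change divided by the square root of the F statistic. The smallest count of a member in a library was 408 (H2afy2). Near-identical copies were found with BLAST+ 2.17.0, and promoter windows for 7 of 8 members came from RefSeq. Reading frames were the longest open frame of any coding transcript. Alternatives were DESeq2 1.42.0, limma 3.58.1 (voom), other scalings and filters, a replicate block and leaving out each library. All members were named, with the 4 smallest p per list and, for each called member, the 2 list genes nearest in fold change. The members and lists were chosen with earlier results of these data known.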

Additional observations from a re-analysis of the deposited data

How the results depend on the processing

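H2afx, H2afz, H2afv, H2afy, H2afy2 and H3f3b kept their direction and call under all 15 alternatives, and no result of a member reversed. The members called higher became 2 under upper-quartile scaling (H3f3a 0.24), library totals alone (0.26), no low-count filter (0.16), the replicate block (0.18) and added copies (0.21), and 1 to 2 when single libraries were left out (H3f3a 0.10 to 0.23). H2afj was called without the low-count filter (−0.28) and with the replicate block (−0.28), and ranged from −0.47 to −0.12 with single libraries left out. The block called 11697 genes in all, and with it all 8 members were called. What a replicate number marks is not given in the labels. Deviations of same-numbered KO and WT libraries had correlations of 0.29, −0.12 and 0.25, and not every library correlated best with its own number. Deviations centred within such small groups cannot settle whether the libraries were paired. With the longest annotated transcript as length, shares were 89.4% in KO and 94.6% in WT for H2afz, 18.3% in WT for H3f3a, and 62.0% in KO and 63.7% in WT for H2afy. With the longest coding transcript, added after the data were seen, they were 89.4%, 94.6% and 18.3% again, and 76.2% in KO and 77.5% in WT for H2afy. Library totals alone shifted the median log2 fold change of all genes to 0.09. The causes were not tested. Depth does not separate reads of H3f3a from those of its copies.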

Other observations

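Within each group most members were lowest in replicate 1, whereas H3f3a and H3f3b were highest there. KO replicate 1 was the lowest KO library for 5 of the 8 genes (H2afx, H2afz, H2afv, H2afy2 and H2afj) and the highest for H3f3a and H3f3b, while KO replicate 3 was the highest for 6 and the lowest for H3f3a and H3f3b. WT replicate 1 was the lowest WT library for 5 genes (H2afx, H2afv, H2afy, H2afy2 and H2afj) and the highest for H3f3a, H3f3b and H2afz. The mitochondrial share of counts was 4.46% in KO replicate 1, 4.17% in KO replicate 2 and 3.76% in KO replicate 3, against 2.46% in WT replicate 1, 1.99% in WT replicate 2 and 1.99% in WT replicate 3. Its part in these orders was not tested.

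Rows of H3f3a pseudogenes with many counts did not share a single fold change. H3f3c, Gm12657 and H3f3a-ps2 were called higher in KO (log2 fold change 0.45, 0.37 and 0.45), and Gm6421 (0.08) and Gm10257 (0.05) were not called.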
